A study of Mus musculus with 11 samples.

Results

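The genes described here are the enzymes of the mouse heart that handle glutathione, superoxide and peroxides, together with the regulator pair that controls many of them. They were chosen by name and by biotype alone, as protein-coding genes of the glutathione S-transferase, glutathione peroxidase, peroxiredoxin and superoxide dismutase families plus Cat, Gclc, Gclm, Gsr, Gss, Nqo1, Srxn1, Nfe2l2 and Keap1. The rule found 50 genes among the 54532 of the table, of which 22046 are protein-coding, and its biotype condition left out 1 pseudogene, Gstm2-ps1. Gpx4 is not among them. No measured value entered the rule, but it was set with earlier results of these data known. RNA was sequenced from whole hearts of C57BL/6 mice with a labelled time of 26 weeks, and the title of the series places METTL3, an enzyme that methylates adenosines in messenger RNA, in diabetic cardiomyopathy. Chow was represented by 3 libraries and HFD+STZ by 4. A further 4 libraries carried HFD+STZ and, in addition, AAV METTL3; they are called METTL3 here, so the HFD+STZ treatment is common to both groups other than chow. The labels do not spell these letters out. HFD is the common short form of high-fat diet, STZ that of streptozotocin, which destroys pancreatic beta cells, and AAV that of adeno-associated virus. They name neither a promoter for the virus nor a control virus in the HFD+STZ mice.

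Superoxide dismutases turn superoxide into hydrogen peroxide, which catalase, peroxiredoxins and glutathione peroxidases then break down. Glutathione, a tripeptide made by the enzymes of Gclc, Gclm and Gss, serves the peroxidases as a donor of electrons and the transferases as a group to attach to reactive lipids and foreign compounds, and glutathione reductase, the product of Gsr, restores it. The transcription factor NRF2, made from Nfe2l2, is held and marked for breakdown by KEAP1; when released, it binds antioxidant response elements and drives many genes of this defence. In heart muscle, with its dense mitochondria, the mitochondrial enzymes SOD2 and PRDX3 stand close to the main source of superoxide.

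Library totals ran from 13900531 to 16952639 counts, and the 50 genes took 0.476% to 0.741% of the nuclear counts. The share of mitochondrially encoded counts was 9.28% to 27.4% on chow, 28.6% to 32.5% in HFD+STZ and 37.7% to 45.5% in METTL3, so the groups did not overlap in this share. Chow replicate 3 stood apart, with the lowest mitochondrial share and 15734 genes with a count against 17317 to 20769 in the other libraries; it was the highest of all 11 libraries for 26.0% and the lowest for 31.8% of all genes tested, and the highest for 16 and the lowest for 10 of the 42 members tested. The labels do not say that replicates come from separate animals, so every p given here reflects only the scatter among these samples, which may be technical. Chow replicate 3 also held the highest summed erythroid markers of chow (2248 CPM, that is, counts scaled by library size, against 336 and 424). Its summed adipocyte (1298 CPM) and macrophage (893 CPM) markers were the highest of chow as well, but the single markers were mixed. Fabp4 alone gave 1292 CPM of the adipocyte sum and Retn was highest, while Plin1, Cidec, Cfd and Car3 were lowest of chow there. Among macrophage markers Adgre1 (5.80 against 13.7 and 13.8 CPM) and Csf1r were lowest, while C1qa, C1qb, C1qc, Mrc1, Cd163, Fcgr1 and Lyz2 were highest. Cardiomyocyte markers, 10 genes above 1 CPM in every group, summed to 38079 to 54558 CPM over all libraries. Mettl3 itself lay at 6.35 ± 1.58 CPM (SD, n = 4) in HFD+STZ and 8.39 ± 2.19 CPM (SD, n = 4) in METTL3 hearts, with overlap between them (log2 fold change 0.40, adjusted p of 0.759 by edgeR after Benjamini-Hochberg), so directions given for METTL3 rest on the label. Where chow replicate 3 moves a result, a value without it follows for many members, but not for all.

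Of the 50 genes, 42 had enough counts to be tested and 31 lay at 10 CPM or more in every library. Those not tested were Gsta2 (45 counts over all libraries), Gstm3 (21), Mgst2 (16), Gstt4 (5), Gstp3 (1) and Gpx2, Gpx5 and Gpx6, which had 0 counts in every library; 3 counts, the most that a count of 0 allows, correspond to 0.155 to 0.269 CPM here. Levels between genes were compared per length, as counts per kilobase scaled so that nuclear protein-coding genes have the same sum in each library. On that length-scaled scale Mgst3, a microsomal transferase with peroxidase activity, had a mean of 817 ± 120 (SD, n = 3) on chow, 1085 ± 67.9 (SD, n = 4) in HFD+STZ and 1035 ± 148 (SD, n = 4) in METTL3. Prdx3, the mitochondrial peroxiredoxin, had means of 759, 978 and 1135 in the same order of groups. Which of the 2 is higher differs between groups and libraries: the chow libraries gave 938, 903 and 436 for Prdx3 and 689, 836 and 927 for Mgst3, so Prdx3 was the higher in chow replicates 1 and 2 and Mgst3 in replicate 3. These and Gstm1, Prdx5, Cat and Gpx3 made up 50.1% of the summed length-scaled level of all members. Summed over all members, that level was 7475 to 8388 on chow, 8540 to 9309 in HFD+STZ and 8380 to 9437 in METTL3, so HFD+STZ lay above chow in each library while the lowest METTL3 library lay just under the highest chow library. At the lower end of the members tested were Gstm6, Gsto2 and Gsta1, with mean length-scaled levels of 2.07, 2.12 and 5.27.

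**Figure D1:**
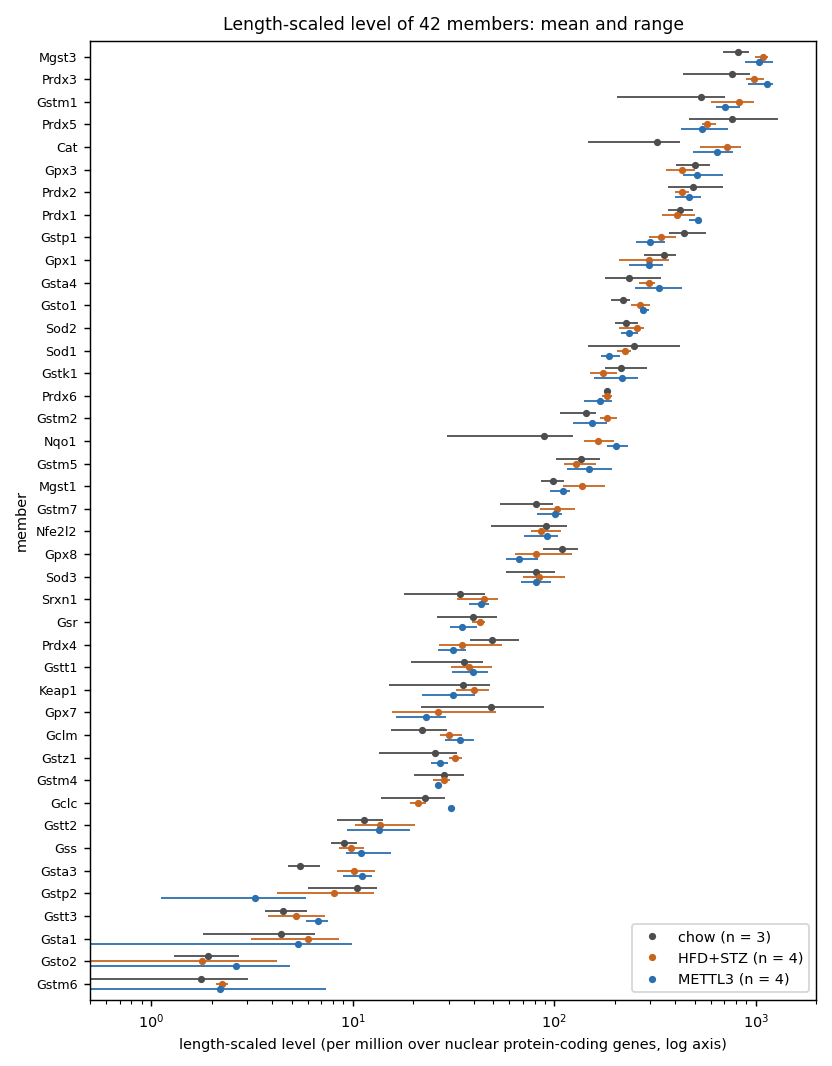
Length-scaled level (relative to the sum over nuclear protein-coding genes, logarithmic axis) of the 42 members tested, ordered by level. Dots are group means and lines run from the lowest to the highest library of a group; lines that reach the left edge include a library below the axis. Mgst3 and Prdx3 head the order, and chow lines are long where chow replicate 3 lies far from the others.

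The comparison of HFD+STZ with chow asks how the diabetic model differs from its control. No member passed an edgeR Benjamini-Hochberg adjusted p of 0.05, where 0.168% of all genes tested did. DESeq2 called 2 and limma voom 11 of 42 members, where they called 2.07% and 13.15% of all genes. At an unadjusted p under 0.05 in edgeR, 8 of 42 members lay higher (5.58% of all genes) and 0 lower (6.53% of all genes). In 7 members every HFD+STZ library lay above every chow library, namely Cat, Nqo1, Gsta3, Gclm, Gstz1, Prdx3 and Gstm2 (5.52% of all genes), and in 0 members all lay below (4.88%). The median log2 fold change was 0.13 over the members and -0.02 over all genes tested. Without chow replicate 3 the groups did not overlap upwards in 14 members (10.3% of all genes) and downwards in 1 (10.99%). The 95% interval of the log2 fold change stayed within a 2-fold change either way in 26 of 42 members.

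The comparison of METTL3 with HFD+STZ, asks what the added METTL3 goes with in the diabetic model. No member passed the adjusted threshold in edgeR, and 0% of all genes did. DESeq2 and limma voom each called 1 of 42 members, Gclc, where they called 0.935% and 2.66% of all genes. At an unadjusted p under 0.05 in edgeR, 1 of 42 members lay higher, Gclc (5.43% of all genes), and 2 lower, Gsr and Gstp2 (3.63%). The groups did not overlap upwards in 2 members, Gclc and Prdx1 (5.43% of all genes), and downwards in 2, Gsr and Gstz1 (4.14%). These shares of members lie near those of all genes. The median log2 fold change was -0.10 over members and -0.00 over all genes, and the interval lay within 2-fold in 35 of 42 members.

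In METTL3 against chow 1 member passed in edgeR, Nqo1, where 3.2% of all genes tested did. DESeq2 called 5 and limma voom 10 of 42 members, where they called 10.15% and 20.7% of all genes. At an unadjusted p under 0.05 in edgeR, 6 members lay higher (10.6% of all genes) and 5 lower (11.1%). All METTL3 libraries lay above all chow libraries in 7 members, Nqo1, Cat, Gclm, Gsta3, Prdx3, Gclc and Gstt3 (10.5% of all genes), and below them in 0 (8.26%). Without chow replicate 3 these counts were 12 (16.9%) and 1 (16.9%). Prdx1, Prdx2, Mgst3, Gsto1 and Gsta4 then joined the higher members, and Keap1 was the lower one. Medians were 0.08 over members and -0.01 over all genes, and 25 of 42 intervals lay within 2-fold. METTL3 replicates 1 to 3 carry sample codes of 25 to 33, away from those of chow, so group and code are largely confounded here too. With the code range as a covariate, 4 members lay higher and 2 lower at an unadjusted p under 0.05 in edgeR. That held for 13.98% of all genes in either direction, and the median over members was 0.13. This comparison and that of HFD+STZ with chow use the same 3 chow libraries, so values that recur in both are not separate evidence.

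**Figure D2:**
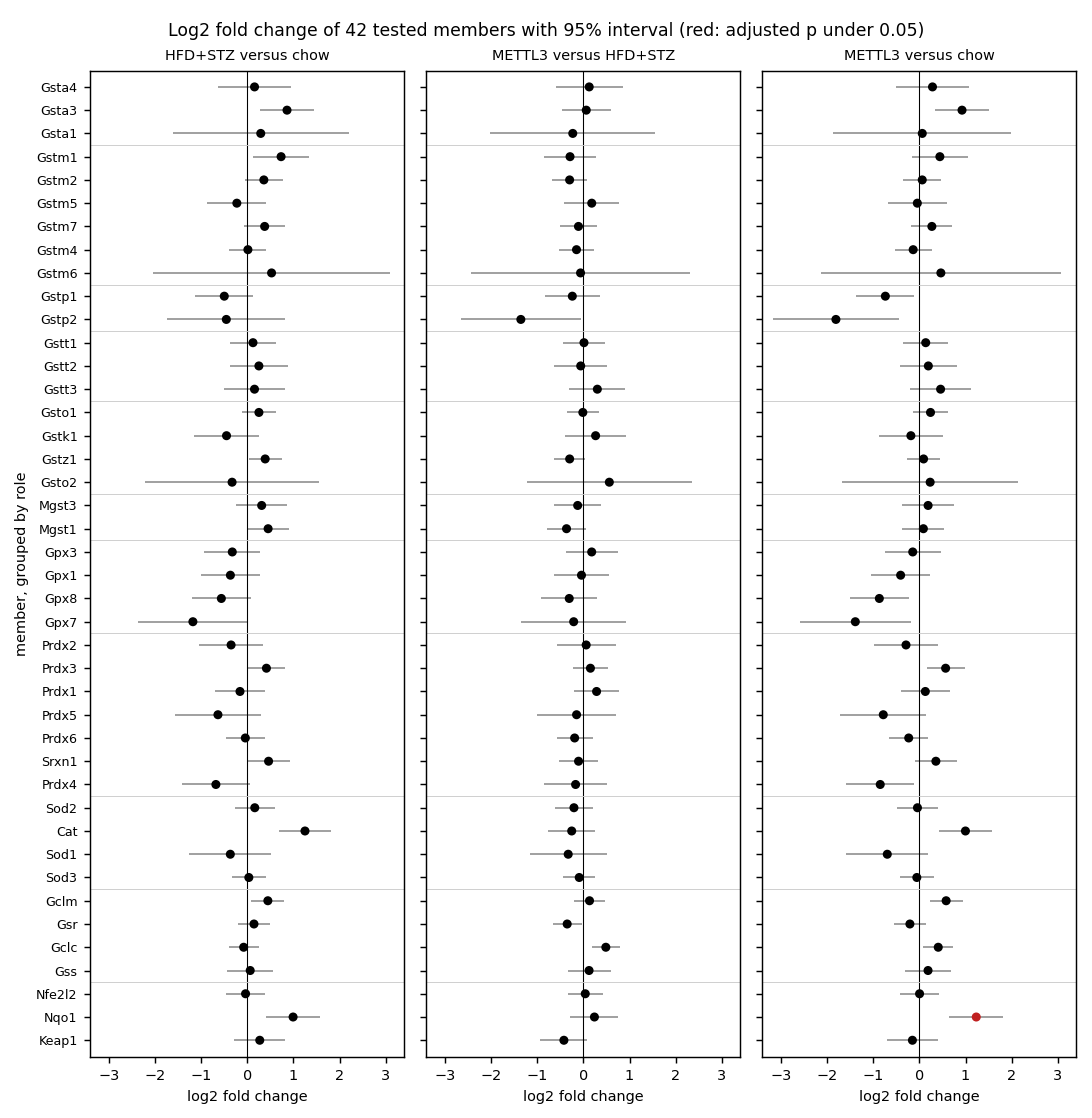
Log2 fold change of the 42 members tested in each comparison (horizontal axes), with 95% intervals as grey lines and members in rows grouped by role. Nqo1 in METTL3 versus chow, at 1.23, is the red point, the 1 member with an adjusted p under 0.05; most intervals in METTL3 versus HFD+STZ include 0.

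Among the regulators, Nfe2l2 (ENSMUSG00000015839, chromosome 2, 75675513 to 75704641, minus strand, mm10 coordinates as deposited) lay at 75.9, 78.4 and 53.5 CPM on chow, at 77.0, 68.8, 64.9 and 59.4 CPM in HFD+STZ and at 67.4, 54.3, 74.5 and 81.9 CPM in METTL3. The groups overlapped throughout. Its log2 fold change was -0.04 in HFD+STZ versus chow (95% interval -0.45 to 0.38), 0.04 in METTL3 versus HFD+STZ (-0.34 to 0.43) and 0.00 in METTL3 versus chow (-0.41 to 0.42), and each interval includes 0. NRF2 is governed largely at the level of its protein, which was not measured. Keap1, the adaptor that holds NRF2, lay at 38.8, 38.1 and 20.7 CPM on chow, at 28.7, 44.9, 37.8 and 45.5 CPM in HFD+STZ and at 30.1, 29.4, 36.2 and 21.4 CPM in METTL3. METTL3 versus HFD+STZ gave -0.42 on the log2 scale (SE 0.23, adjusted p of 0.628 by edgeR). Chow replicate 3 was low for both genes, and the METTL3 libraries overlapped HFD+STZ for Keap1.

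Nqo1 encodes a quinone reductase and is a classical NRF2 target (ENSMUSG00000003849, chromosome 8, 107388225 to 107403206, minus strand). It lay at 30.5, 35.8 and 13.3 CPM on chow, at 57.4, 48.9, 47.2 and 57.5 CPM in HFD+STZ, and at 59.4, 57.5, 68.6 and 63.8 CPM in METTL3. Every library of both other groups lay above every chow library, while HFD+STZ and METTL3 met at 57.5 CPM. In METTL3 versus chow it rose 2.35-fold (log2 fold change 1.23, SE 0.27, edgeR Benjamini-Hochberg adjusted p of 0.0347). In whole tissue, a change in the number of cells of a type and a change in RNA per cell cannot be told apart. The log2 fold change was 0.99 (SE 0.27, adjusted p of 0.193 by edgeR) in HFD+STZ versus chow and 0.24 (SE 0.24, adjusted p of 0.812) in METTL3 versus HFD+STZ. HFD+STZ versus chow passed in DESeq2 (adjusted p of 0.0217) and limma voom (0.00679). Of its 23 alternative fits 4 passed, and the adjusted p (edgeR, DESeq2 or limma) reached 0.817. Without chow replicate 3, the lowest library, METTL3 versus chow stood at 0.90 with an edgeR adjusted p of 0.0100. Over 23 alternative fits of that comparison all had the same direction and 12 passed, with an adjusted p (edgeR, DESeq2 or limma) of 0.000659 to 0.168. It was lost without chow replicate 2, HFD+STZ replicate 2 or 4, or any 1 of the METTL3 libraries, and in the fit of the compared groups alone, with the code range as a covariate and with length and GC offsets. Labelled sample codes 78 to 98 hold all chow libraries, HFD+STZ replicate 1 and METTL3 replicate 4; within that range Nqo1 lay at 57.4 and 63.8 CPM in the latter 2 against 13.3 to 35.8 CPM on chow.

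**Figure D3:**
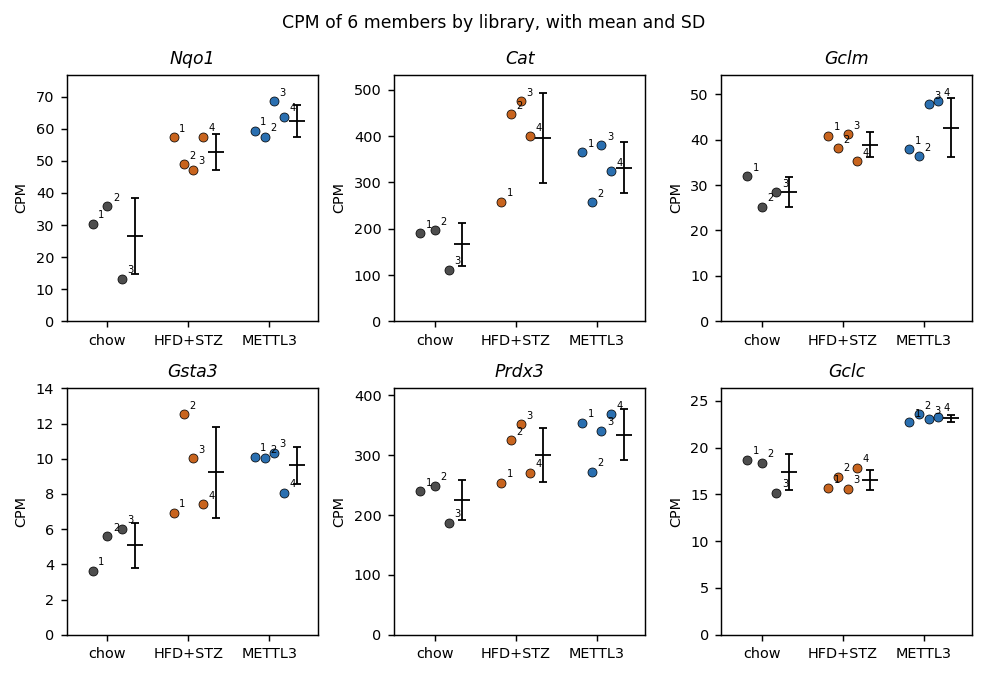
CPM (vertical axes, from 0) of Nqo1, Cat, Gclm, Gsta3, Prdx3 and Gclc in each library, with the replicate number beside each dot and the group mean ± SD at its right. In all panels but Gclc the 3 chow libraries lie below both other groups; for Gclc the METTL3 libraries sit together at 22.7 to 23.6 CPM above the rest.

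To show what precedes the start of the 4 members with the smallest p in METTL3 versus chow, the 250 bases before the RefSeq transcription start of each are given 5′ to 3′ on the strand of the gene (build GRCm38.p6). Capitals mark the core of the antioxidant response element, searched as TGACNNNGC on both strands of a window from 250 bases before to 50 after the start. Nqo1 stands at chr8:107403206-107403455 and Cat at chr2:103485154-103485403, both on the minus strand; Gclm stands at chr3:122245307-122245556 and Gsta3 at chr1:21240335-21240584, both on the plus strand.
Nqo1: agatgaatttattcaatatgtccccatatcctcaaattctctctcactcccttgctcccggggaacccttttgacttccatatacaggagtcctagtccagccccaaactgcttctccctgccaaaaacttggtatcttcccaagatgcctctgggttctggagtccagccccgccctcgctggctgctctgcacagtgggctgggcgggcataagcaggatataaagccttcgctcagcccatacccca
Cat: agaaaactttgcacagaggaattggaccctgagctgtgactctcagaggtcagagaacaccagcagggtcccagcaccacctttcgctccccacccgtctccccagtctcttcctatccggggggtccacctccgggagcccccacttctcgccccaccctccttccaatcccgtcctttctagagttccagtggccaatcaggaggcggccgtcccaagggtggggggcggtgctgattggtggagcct
Gclm: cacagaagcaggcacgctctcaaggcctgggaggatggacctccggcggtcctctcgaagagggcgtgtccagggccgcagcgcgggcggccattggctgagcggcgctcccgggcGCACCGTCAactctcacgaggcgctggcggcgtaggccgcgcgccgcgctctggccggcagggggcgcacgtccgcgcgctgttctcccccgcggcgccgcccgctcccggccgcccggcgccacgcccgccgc
Gsta3: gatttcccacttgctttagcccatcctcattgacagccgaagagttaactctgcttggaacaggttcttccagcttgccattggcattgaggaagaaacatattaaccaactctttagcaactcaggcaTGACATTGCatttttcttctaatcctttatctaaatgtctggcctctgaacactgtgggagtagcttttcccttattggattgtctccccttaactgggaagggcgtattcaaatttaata
In Gclm the match is TGACGGTGC on the opposite strand, 134 to 126 bases before the start, and in Gsta3 it is TGACATTGC on the gene's own strand, 121 to 113 bases before. The windows of Nqo1 and Cat hold neither this core nor its looser form TGANNNNGC, which says only that these letters are not in this window. Windows were found for 44 of the 50 members, and the strict core lay in those of 9 members: Gclm, Gsta3, Gstm5, Gstm7, Mgst1, Nfe2l2, Prdx1, Sod1 and Srxn1. That is 17% of 53 member windows, against 12.4% of all 32851 windows of this length; the looser form gave 49.1% against 41.3%. The match of Prdx1, TGACTCAGC at 133 to 125 bases before the start, also contains TGACTCA, the motif of AP-1.

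The synthesis of glutathione starts with the ligase of a catalytic subunit, encoded by Gclc, and a modifier subunit, encoded by Gclm. Gclm (ENSMUSG00000028124, chromosome 3, 122245557 to 122270732) lay at 31.9, 25.3 and 28.4 CPM on chow, at 40.9, 38.1, 41.1 and 35.2 CPM in HFD+STZ and at 37.9, 36.4, 47.8 and 48.5 CPM in METTL3. Both other groups lay above chow in every library and overlapped each other. Its log2 fold change was 0.45 (SE 0.16, edgeR Benjamini-Hochberg adjusted p of 0.332) in HFD+STZ and 0.58 (SE 0.17, adjusted p of 0.0721) in METTL3 against chow, values that did not pass in edgeR; DESeq2 passed the latter (adjusted p of 0.0166), and limma voom passed both (0.0109 and 0.00270). Of 23 alternative fits of each comparison, 1 passed for HFD+STZ and 2 for METTL3 against chow. Their adjusted p (edgeR, DESeq2 or limma) reached 0.860 and 0.322. The METTL3 value was 0.29 after offsets for GC content and gene length. Here chow replicate 3 lay between its companions, and without it the values were 0.45 and 0.57.

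Gclc (ENSMUSG00000032350, chromosome 9, 77754535 to 77794485) showed another order of the groups. It lay at 18.7, 18.4 and 15.2 CPM on chow, at 15.7, 16.9, 15.6 and 17.8 CPM in HFD+STZ and at 22.7, 23.6, 23.0 and 23.3 CPM in METTL3. All METTL3 libraries lay above all libraries of both other groups, while HFD+STZ overlapped chow. The difference of METTL3 from HFD+STZ was 0.49 on the log2 scale (SE 0.14), with the smallest p among the members (adjusted p of 0.353 by edgeR), against 0.0479 by DESeq2 and 0.0459 by limma voom. Over 24 alternative fits the value ran from 0.45 to 0.51, and the adjusted p (edgeR, DESeq2 or limma) from 0.0459 to 0.914. Against chow it was 0.41 (SE 0.15, edgeR adjusted p of 0.141), and 0.31 without chow replicate 3; limma voom gave an adjusted p of 0.0496. Of 23 alternative fits against chow 1 passed, and the adjusted p (edgeR, DESeq2 or limma) reached 0.419.

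Gss, the second enzyme of synthesis, lay at 9.17, 11.6 and 13.5 CPM on chow, at 12.6, 11.6, 13.3 and 10.3 CPM in HFD+STZ and at 11.8, 18.5, 10.5 and 11.4 CPM in METTL3, with all groups overlapping. Gsr, glutathione reductase, lay at 24.8, 20.4 and 21.1 CPM on chow, at 23.5, 25.9, 23.1 and 25.2 CPM in HFD+STZ and at 20.7, 17.1, 21.6 and 17.3 CPM in METTL3. For Gsr every METTL3 library lay below every HFD+STZ library (log2 fold change -0.35, SE 0.15, edgeR Benjamini-Hochberg adjusted p of 0.525), a difference that did not pass. Within METTL3 versus HFD+STZ the genes of synthesis and of reduction thus had estimates of opposite sign, neither past the threshold.

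Catalase, a peroxisomal enzyme, had the smallest p of all members in HFD+STZ versus chow. Cat (ENSMUSG00000027187, chromosome 2, 103453849 to 103485160) lay at 190, 197 and 112 CPM on chow, at 258, 447, 476 and 400 CPM in HFD+STZ and at 365, 258, 381 and 325 CPM in METTL3. Every library of the other groups was above chow, with HFD+STZ replicate 1 the lowest of its group. The log2 fold change was 1.25 (SE 0.27, edgeR Benjamini-Hochberg adjusted p of 0.0872) in HFD+STZ and 1.00 (SE 0.26, adjusted p of 0.0583) in METTL3 against chow, and -0.25 (SE 0.24) in METTL3 versus HFD+STZ. Without HFD+STZ replicate 1 both values against chow passed, at edgeR adjusted p values of 0.0177 and 0.0401. No other HFD+STZ library lies in the sample code range of chow. In that fit HFD+STZ versus chow is therefore fully confounded with the code range. Without chow replicate 3 the values for HFD+STZ and METTL3 against chow were 1.04 and 0.77 and did not pass. With all libraries DESeq2 gave adjusted p values of 0.00039 and 0.00508 in the same order, and limma voom 0.000204 and 0.00235. Of 23 alternative fits of each comparison with chow, 5 passed. Their adjusted p (edgeR, DESeq2 or limma) reached 0.86 for HFD+STZ and 0.32 for METTL3.

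The superoxide dismutases did not share that pattern. Sod2, the mitochondrial enzyme, lay at 449, 405 and 587 CPM on chow, at 391, 603, 590 and 566 CPM in HFD+STZ and at 520, 461, 441 and 445 CPM in METTL3, with overlap between all groups. Sod3, the extracellular enzyme, lay at 55.5, 70.4 and 62.4 CPM on chow, 78.8, 58.4, 60.6 and 59.2 CPM in HFD+STZ and 57.0, 51.6, 68.8 and 64.3 CPM in METTL3; its 95% interval in HFD+STZ versus chow ran from -0.34 to 0.41. Sod1, the cytosolic copper and zinc enzyme, lay at 101, 133 and 487 CPM on chow, at 165, 213, 202 and 165 CPM in HFD+STZ and at 139, 153, 128 and 174 CPM in METTL3. Its fitted log2 fold change in HFD+STZ versus chow was -0.37 (SE 0.41) with all libraries and 0.68 without chow replicate 3, which lay above every other library; in METTL3 versus chow it was -0.69 and 0.34. No direction is given for Sod1. In HFD+STZ versus chow its edgeR adjusted p without that library was 0.166, and limma voom, with the opposite sign to edgeR, gave 0.0283 with all libraries.

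Among the peroxiredoxins, which reduce peroxides through a reactive cysteine, Prdx3 (ENSMUSG00000024997, chromosome 19, 60864051 to 60874556) lay at 240, 249 and 188 CPM on chow, at 254, 325, 352 and 271 CPM in HFD+STZ and at 355, 272, 341 and 369 CPM in METTL3. Both groups lay above chow in every library, by 254 against 249 CPM at the narrowest. The log2 fold change in METTL3 versus chow was 0.57 (SE 0.19, edgeR Benjamini-Hochberg adjusted p of 0.114) and 0.44 without chow replicate 3, neither past the threshold in edgeR; with all libraries it passed in DESeq2 (adjusted p of 0.0292) and limma voom (0.0191). Of 23 alternative fits 2 passed, and the adjusted p (edgeR, DESeq2 or limma) reached 0.35. Srxn1, sulfiredoxin, which restores overoxidised peroxiredoxins and is another NRF2 target, lay at 22.1, 20.4 and 14.7 CPM on chow, at 22.2, 32.4, 20.1 and 30.2 CPM in HFD+STZ and at 26.7, 21.6, 24.3 and 25.1 CPM in METTL3, with HFD+STZ replicate 3 and METTL3 replicate 2 within the chow range.

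Prdx5 and Prdx2 show how far the chow group can be read. Prdx5, found in mitochondria, peroxisomes and cytosol, lay at 172, 213 and 804 CPM on chow, at 229, 303, 253 and 237 CPM in HFD+STZ and at 181, 316, 183 and 243 CPM in METTL3. Its log2 fold change in HFD+STZ versus chow was -0.64 with all libraries and 0.41 without chow replicate 3; in METTL3 versus chow it was -0.78 and 0.25. Prdx2, abundant in red blood cells, lay at 193, 238 and 607 CPM on chow, at 268, 296, 277 and 246 CPM in HFD+STZ and at 242, 329, 257 and 306 CPM in METTL3. Its log2 fold change was -0.35 in HFD+STZ and -0.29 in METTL3 against chow, and 0.34 and 0.38 without that library. The summed erythroid markers were also highest in chow replicate 3, at 2248 CPM, but reached 1997 CPM in a METTL3 library; their part in these values was not tested. None of these values passed with edgeR. Prdx1 lay at 192, 234 and 432 CPM on chow, 285, 268, 262 and 211 CPM in HFD+STZ and 322, 287, 305 and 338 CPM in METTL3, where all METTL3 libraries exceeded all HFD+STZ libraries. Prdx4 of the endoplasmic reticulum lay at 13.99, 16.7 and 40.9 CPM on chow and 11.3 to 21.7 CPM in the other libraries, and Prdx6, which also acts on phospholipids, at 140 to 246 CPM over all libraries.

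**Figure D4:**
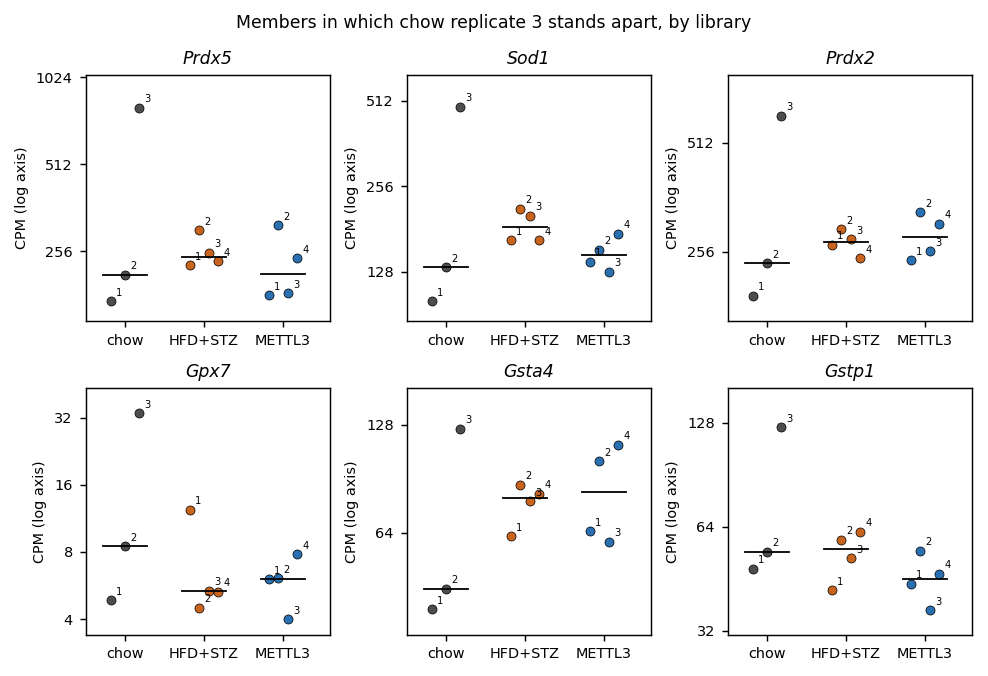
CPM (vertical axes, logarithmic) of Prdx5, Sod1, Prdx2, Gpx7, Gsta4 and Gstp1 in each library, with replicate numbers beside the dots and a line at each group's median. Chow replicate 3 is the highest library in every panel, at 804 CPM for Prdx5 and 487 CPM for Sod1, while chow replicates 1 and 2 lie near or below the other groups.

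Glutathione peroxidases reduce peroxides with glutathione. Gpx3, the secreted enzyme, lay at 126, 170 and 312 CPM on chow, at 152, 168, 195 and 133 CPM in HFD+STZ and at 157, 159, 238 and 180 CPM in METTL3. Gpx1, the cytosolic and mitochondrial enzyme, lay at 69.1, 102 and 168 CPM on chow, at 99.5, 74.4, 116 and 61.7 CPM in HFD+STZ and at 67.8, 101, 78.4 and 94.6 CPM in METTL3. The groups overlapped for both, and chow replicate 3 was the highest library. Without it the chow mean of Gpx3 was 148 CPM, not 203 CPM, beside 162 CPM in HFD+STZ. That of Gpx1 was 85.4 CPM, not 113 CPM, beside 87.8 CPM in HFD+STZ. Gpx7 and Gpx8 belong to the endoplasmic reticulum. Gpx8 lay at 15.9, 21.2 and 39.9 CPM on chow, at 24.1, 15.02, 15.8 and 14.6 CPM in HFD+STZ and at 12.8, 12.2, 13.1 and 18.1 CPM in METTL3. METTL3 versus chow gave -0.87 on the log2 scale (SE 0.30, edgeR Benjamini-Hochberg adjusted p of 0.119), and -0.41 without chow replicate 3; it passed without chow replicate 1, at an edgeR adjusted p of 0.0459, and in limma voom with all libraries (0.0430). Of 23 alternative fits of Gpx8 these 2 passed, and the adjusted p (edgeR, DESeq2 or limma) reached 0.591. Gpx7 lay at 4.87, 8.49 and 33.5 CPM on chow and at 12.4, 4.50, 5.37 and 5.30 CPM in HFD+STZ; its value in METTL3 versus chow was -1.39 with all libraries and -0.17 without chow replicate 3. For Gpx7, Gpx8 and Prdx4 the highest HFD+STZ library was replicate 1, which also had the highest summed fibroblast markers of all libraries (4214 CPM, against 2293 to 3943 CPM in the others); the part of these cells was not tested.

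Glutathione S-transferases of the alpha class attach glutathione to products of lipid peroxidation, and GSTA4 prefers hydroxynonenal. Gsta3 (ENSMUSG00000025934, chromosome 1, 21240589 to 21265661) lay at 3.63, 5.59 and 6.02 CPM on chow, at 6.92, 12.5, 10.04 and 7.43 CPM in HFD+STZ and at 10.1, 10.03, 10.3 and 8.06 CPM in METTL3. All libraries of both groups lay above chow. The log2 fold change of Gsta3 was 0.86 (SE 0.27, edgeR Benjamini-Hochberg adjusted p of 0.261) in HFD+STZ and 0.92 (SE 0.27, adjusted p of 0.0783) in METTL3 against chow, and 1.00 and 1.05 without chow replicate 3. With all libraries METTL3 versus chow passed in DESeq2 (adjusted p of 0.0250) and in limma voom (0.0149), and HFD+STZ versus chow in limma voom (0.0123). Of 23 alternative fits of each comparison, 3 passed for METTL3 and 2 for HFD+STZ against chow. Their adjusted p (edgeR, DESeq2 or limma) reached 0.422 and 0.931. The METTL3 value was 0.61 after offsets for GC content and gene length. Gsta4 lay at 39.1, 44.7 and 125 CPM on chow, at 62.5, 87.1, 78.2 and 82.1 CPM in HFD+STZ and at 64.6, 101, 60.4 and 112 CPM in METTL3, so that the other groups lie above chow replicates 1 and 2 and below replicate 3. Neither edgeR with all libraries nor DESeq2 called Gsta4, while edgeR without chow replicate 3 called it in METTL3 versus chow and limma voom called it in both comparisons with chow.

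In the mu class, Gstm1 was the third most abundant member per length. It lay at 178, 191 and 87.7 CPM on chow, at 165, 280, 310 and 259 CPM in HFD+STZ and at 200, 188, 188 and 254 CPM in METTL3; its log2 fold change in HFD+STZ versus chow was 0.73 (SE 0.28, edgeR Benjamini-Hochberg adjusted p of 0.349) and 0.46 without chow replicate 3, and limma voom passed it (adjusted p of 0.0254). Of 23 alternative fits of Gstm1 in that comparison 1 passed, and the adjusted p (edgeR, DESeq2 or limma) reached 0.931. Gstm2 lay at 46.7, 50.5 and 52.4 CPM on chow, at 53.3, 76.3, 66.4 and 59.7 CPM in HFD+STZ and at 41.4, 62.2, 43.5 and 61.3 CPM in METTL3, with HFD+STZ just above chow in every library. The other mu members tested were Gstm5, Gstm7 and Gstm4, at 8.55 to 63.1 CPM, and Gstm6, at 0 to 3.05 CPM. Mu transcripts share sequence: 34.3% of the 31-base words of Gstm1 and 19.5% of those of Gstm2 also occur in other genes, so their split is uncertain to that degree.

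The pi class held Gstp1, at 48.4, 54.2 and 124 CPM on chow, at 41.9, 58.6, 51.8 and 61.9 CPM in HFD+STZ and at 43.7, 54.6, 36.6 and 46.8 CPM in METTL3. METTL3 versus chow gave -0.74 on the log2 scale (SE 0.29) and -0.19 without chow replicate 3. Gstp2 lay at 1.76, 0.860 and 2.76 CPM on chow, at 1.17, 2.19, 0.697 and 1.16 CPM in HFD+STZ and at 0.470, 0.919, 0.453 and 0.179 CPM in METTL3. METTL3 versus HFD+STZ gave -1.35 on the log2 scale (SE 0.60, edgeR Benjamini-Hochberg adjusted p of 0.534). Of its 31-base words 78.1% occur in other genes, as do 67.5% of those of Gstp1 and 92.2% of those of Gsta1, so the values of these 3 genes are uncertain.

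Among the remaining transferases, Gstz1, the zeta enzyme of tyrosine breakdown, lay at 29.0, 28.8 and 20.04 CPM on chow, at 33.2, 36.0, 32.9 and 33.8 CPM in HFD+STZ and at 26.6, 25.1, 28.8 and 30.2 CPM in METTL3. HFD+STZ lay above both other groups in every library, with log2 fold changes of 0.39 (SE 0.17, edgeR Benjamini-Hochberg adjusted p of 0.383) against chow and, for METTL3 versus HFD+STZ, -0.30 (SE 0.15, adjusted p of 0.598). Without chow replicate 3 the former was 0.24. Gsto1 of the omega class lay at 80.5, 85.3 and 109 CPM on chow, at 88.9, 121, 107 and 120 CPM in HFD+STZ and at 108, 118, 99.1 and 109 CPM in METTL3. Gstk1, the mitochondrial and peroxisomal kappa enzyme, lay at 45.4, 48.9 and 123 CPM on chow, at 56.1, 61.0, 50.3 and 44.9 CPM in HFD+STZ and at 55.8, 77.1, 43.9 and 78.8 CPM in METTL3, with chow replicate 3 highest. Without that library the chow mean of Gstk1 was 47.2 CPM, not 72.5 CPM, beside 53.1 CPM in HFD+STZ. Gsto2, a minor omega member, lay at 0.122 to 1.43 CPM.

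Theta enzymes act on small halogenated compounds. Gstt1 lay at 11.5, 12.7 and 8.67 CPM on chow, at 14.1, 12.9, 11.01 and 9.62 CPM in HFD+STZ and at 9.48, 13.0, 10.8 and 14.9 CPM in METTL3. Gstt2 lay at 8.45, 10.97 and 10.1 CPM on chow, at 10.4, 9.91, 9.20 and 17.3 CPM in HFD+STZ and at 9.01, 16.2, 11.7 and 8.06 CPM in METTL3. The groups overlapped for both. Gstt3 lay at 2.44, 4.25 and 4.50 CPM on chow and at 5.80, 4.76, 5.29 and 4.66 CPM in METTL3, which did not overlap by 4.66 against 4.50 CPM. Of the microsomal transferases, membrane enzymes that reduce lipid peroxides, Mgst3 lay at 131, 171 and 296 CPM on chow, at 203, 265, 271 and 249 CPM in HFD+STZ and at 193, 242, 198 and 276 CPM in METTL3. Mgst1 lay at 33.7, 42.1 and 50.2 CPM on chow, at 46.5, 60.3, 77.8 and 45.1 CPM in HFD+STZ and at 46.1, 46.8, 45.7 and 39.9 CPM in METTL3. For Mgst1 METTL3 versus HFD+STZ gave -0.36 on the log2 scale (SE 0.19, adjusted p of 0.610 by edgeR).

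**Figure D5:**
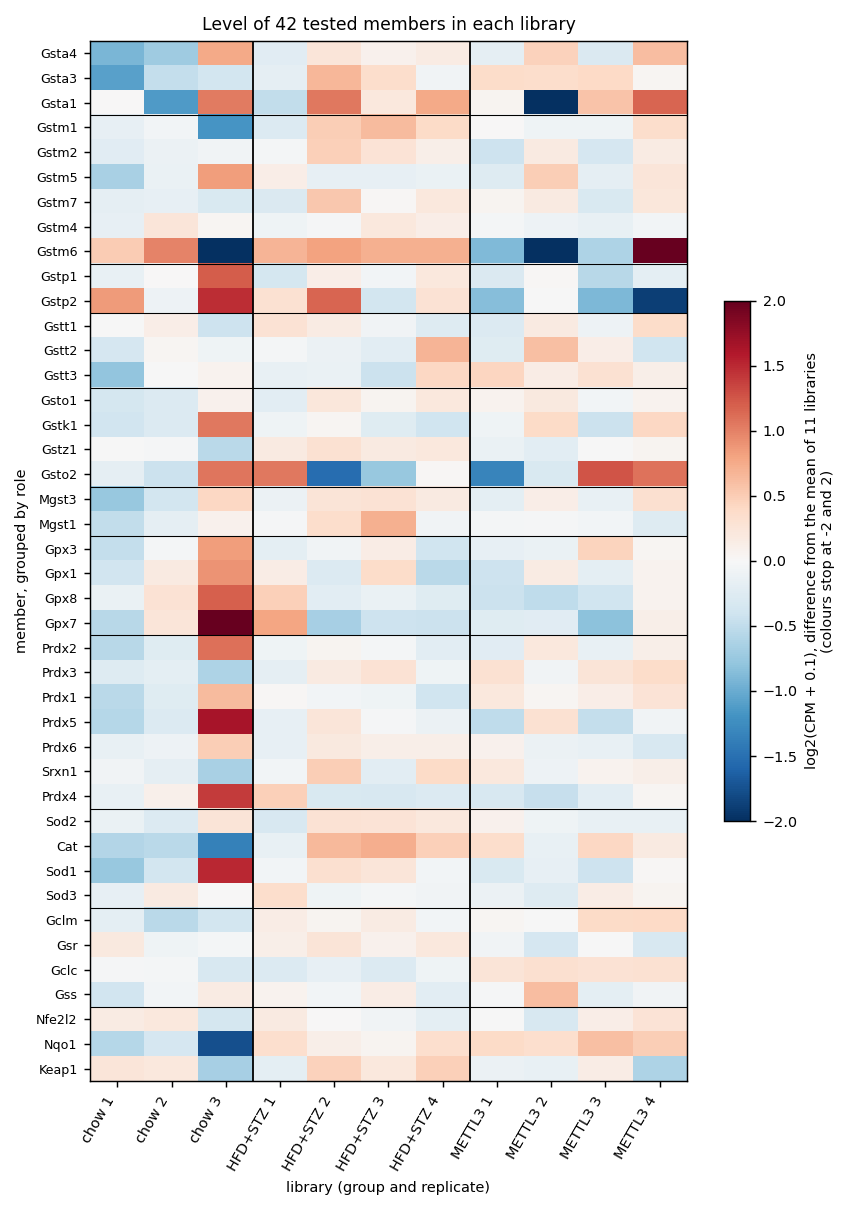
Level of the 42 members tested in each library, as log2(CPM + 0.1) less the mean of the 11 libraries, with members in rows by role and libraries in columns by group. Red is above and blue below the mean; colours stop at -2 and 2. Chow replicate 3 is red for Prdx5 and Sod1, where the other chow columns are blue, and a deeper blue than they are for Nqo1, Cat and Gstm1.

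Genes around these enzymes were read from 7 lists, some of which share genes. Of 25 NRF2 targets outside the members, 23 were tested; 0 passed in HFD+STZ versus chow and in METTL3 versus HFD+STZ, and 1 higher and 1 lower passed in METTL3 versus chow, with a median of -0.15. The higher gene was Aldh1a1, a retinal dehydrogenase (24.8 to 28.7 CPM on chow, 38.0 to 57.8 CPM in METTL3). The lower gene was Blvrb, biliverdin reductase B (8.50, 9.62 and 25.3 CPM on chow, 1.80 to 4.68 CPM in METTL3). In METTL3 versus chow their log2 fold changes were 0.76 (SE 0.18) and -2.08 (SE 0.39), with edgeR Benjamini-Hochberg adjusted p values of 0.0424 and 0.0246. At an unadjusted p under 0.05, 2 of the 23 lay higher and 6 lower in METTL3 versus chow (10.6% and 11.1% of all genes). With all libraries the list thus did not follow Nqo1 as a group, and these counts were not taken without chow replicate 3. That library was the highest of chow for Fth1 (3314 against 1198 and 1529 CPM) and Mt1 (587 against 64.2 and 96.7 CPM). It was the lowest for Txnrd1 (27.7 against 58.0 and 51.7 CPM). METTL3 lay at 1737 to 1939, 316 to 449 and 42.5 to 67.3 CPM for these genes.

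In the thioredoxin system, 18 genes, 1 gene passed in each comparison with chow. Txnip, a glucose-responsive protein that binds thioredoxin, rose from 317 to 413 CPM on chow to 786 to 1157 CPM in HFD+STZ and 595 to 1035 CPM in METTL3 (log2 fold changes of 1.50 and 1.35, SE 0.24 each, edgeR adjusted p values of 0.0309 and 0.0202). Among 22 genes of selenoproteins and their synthesis, Trnau1ap, a protein that binds the selenocysteine transfer RNA, fell by 1.45 (SE 0.26) on the log2 scale in METTL3 versus chow (edgeR adjusted p of 0.0206). Of 13 tested sources of superoxide and peroxide, Maob, a monoamine oxidase of the mitochondrial outer membrane, rose there by 1.09 (SE 0.22, edgeR adjusted p of 0.0290), from 19.5 to 33.9 CPM on chow to 49.98 to 67.7 CPM. Without chow replicate 3 the values in METTL3 versus chow were -1.42 for Blvrb, -1.07 for Trnau1ap and 0.87 for Maob, each still past the threshold. The calls of Maob and Aldh1a1 were lost with length and GC offsets (adjusted p of 0.0571 and 0.0810 by edgeR), and that of Aldh1a1 also with no filter and with upper-quartile scaling. The call of each gene named from these lists was lost in the fit of the compared groups alone and with the code range as a covariate, and in some fit that left out another library: without METTL3 replicate 1, 3 or 4 for all of them, without chow replicate 2 also for Maob and Txnip in METTL3 versus chow, and without chow replicate 1 or 2, METTL3 replicate 2 or HFD+STZ replicate 2, 3 or 4 for Aldh1a1. Among the edgeR fits that left out 1 library, Txnip in HFD+STZ versus chow kept its call without HFD+STZ replicate 1, METTL3 replicate 2 or chow replicate 3 and lost it in the other 8; over all 23 alternatives it passed in 12.

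The lists of glutathione turnover (25 genes, 23 tested), NADPH supply (14 genes) and NRF2 regulators and partners (16 symbols, 14 genes tested) had 0 genes past the threshold in any comparison. In NADPH supply, the pathway that recharges glutathione and thioredoxin reductases, 4 of 14 genes lay higher and 0 lower at an unadjusted p under 0.05 in HFD+STZ versus chow (5.58% and 6.53% of all genes), with a median log2 fold change of 0.40. Idh2, the mitochondrial isocitrate dehydrogenase, lay at 997, 1090 and 966 CPM on chow and at 1227, 2034, 1743 and 1963 CPM in HFD+STZ, with an edgeR adjusted p of 0.168. Medians of the other 2 lists lay between -0.03 and 0.14. Markers of macrophages, whose NADPH oxidase makes superoxide, summed to 451, 631 and 893 CPM on chow, the last in replicate 3. Their sums were 283 to 673 CPM in HFD+STZ, which overlapped chow, and 190 to 334 CPM in METTL3. In METTL3 versus chow 4 of 10 passed downwards, where 3.2% of all genes passed in either direction. The part of these cells in the values of Blvrb was not tested.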

How the data were processed

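RNA of 11 mouse heart libraries was sequenced after ribosomal RNA removal, per the labels' protocols. The authors deposited 1 table of whole-number counts per gene; FastQC, Salmon and mm10 are named in the submitters' processing notes, and the handling of strand and of shared reads is not stated there or in the labels. Groups came from the treatment label. Genes were kept by filterByExpr (minimum count 10, minimum total 15), which left 14862, and compared with edgeR 4.0.16 (R 4.3.3): TMM scaling, a quasi-likelihood fit of the group means over all libraries, and Benjamini-Hochberg adjustment over all genes tested, with a threshold of 0.05. CPM values are counts divided by the TMM-scaled library size; intervals are 95%. Library totals limit the precision of low genes, and no duplicate libraries were found. Alternatives used DESeq2 1.42.0, limma 3.58.1, other scalings, filters, covariates and libraries left out; the offsets for gene length and GC content, and the counts without chow replicate 3, were chosen after seeing the data. The test was tested on simulated data. At a log2 fold change of 1 it recovered 16.9% of changed genes in HFD+STZ versus chow, 21.2% in METTL3 versus HFD+STZ and 11.8% in METTL3 versus chow. At a log2 fold change of 2 these were 75.5%, 65.6% and 75.3%, and 4.90%, 7.69% and 3.75% of calls were false. The absence of a call therefore does not show the absence of a change. The simulated counts were drawn independently for each gene around a common mean, with 200 genes changed and no library set apart. In the real data chow replicate 3 stood apart and group and sample code were confounded, so these rates need not hold for the real calls. Members and related lists were chosen with earlier results of these data known. Values in every library are given for members past the threshold, the 6 members with the smallest p in each comparison, the 2 with the highest level in each role group, and Nfe2l2, Keap1, Nqo1, Gclc, Gclm, Gsr, Gss, Cat, Sod1, Sod2, Sod3, Gpx1, Gpx3, Prdx3 and Srxn1. Of the related lists, genes past the threshold are named, or otherwise up to 3 with the smallest p. Promoter sequences are from RefSeq (GRCm38.p6).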

Additional observations from a re-analysis of the deposited data

Results flagged for a closer look

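In a group of 4 libraries, 1 library was taken to lie apart when its gap to the nearest other library, divided by the range of the group in log2 CPM, exceeded Dixon's 95% critical value for 4 values. This held in 7 of the 84 groups examined (8.33%), where chance gives about 1 in 20. The share over all genes tested was not taken. Members in the same library are not independent, so these shares do not show an excess among the members. In HFD+STZ, 5 of the 7 concerned replicate 1. Sod2 was low there, at 391 CPM against 566 to 603 CPM in the other HFD+STZ libraries (ratio 0.857). Sod3 was high, at 78.8 CPM against 58.4 to 60.6 CPM (ratio 0.873). Gstm5, a mu class transferase, was high at 38.7 CPM against 31.6 to 32.3 CPM (ratio 0.903). Gpx8 and Prdx4, both enzymes of the endoplasmic reticulum, were high at 24.1 CPM against 14.6 to 15.8 CPM (ratio 0.850) and at 21.7 CPM against 12.4 to 12.8 CPM (ratio 0.938). In METTL3 the others concerned replicate 4: Mgst1 was low at 39.9 CPM against 45.7 to 46.8 CPM (ratio 0.849), and Gsta3 was low at 8.06 CPM against 10.03 to 10.3 CPM (ratio 0.875).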

How the results depend on the processing

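Genes past the threshold in HFD+STZ versus chow, 25 with all libraries, numbered 307 with DESeq2, 1954 with limma voom, 493 without both chow replicate 3 and HFD+STZ replicate 1, 190 with no filter, 43 with the stricter filter, 66 with length and GC offsets, 0 with only the groups compared and 1 with the sample code range as a covariate; members, 0, numbered 2, 11, 5 and 2 in the first 4 of these. In these first 4 fits 2.07%, 13.15%, 3.28% and 0.698% of all genes passed, beside 42 members tested (47 with no filter). In METTL3 versus HFD+STZ, 0 genes became 139 with DESeq2, 395 with limma voom and 403 without both libraries; members, 0, became 1 (Gclc) with DESeq2 and with limma voom. In METTL3 versus chow, 475 genes became 1509 with DESeq2, 3078 with limma voom, 1258 without both libraries, 747 with no filter, 227 with offsets, 54 with only the groups compared and 1 with the covariate; members, 1, became 5, 10, 4, 2, 0, 0 and 0 in that order, and the median of members became 0.22 without both libraries. In the same order 10.15%, 20.7%, 8.38%, 2.74%, 1.53%, 0.380% and 0.00673% of all genes passed, beside 42 members tested (47 with no filter). Same-numbered replicates did not deviate together (r from -0.229 to 0.162), so the numbers do not pair the samples; with the number as a replicate block, 2 genes and 0 members passed in HFD+STZ versus chow and 5 genes and 0 members in METTL3 versus chow, and the calls of Nqo1, Txnip, Maob, Aldh1a1, Trnau1ap and Blvrb were lost. Leaving out 1 library gave 1 to 215 genes, 0 to 1 members and medians of 0.015 to 0.29 in HFD+STZ versus chow, and 34 to 750 genes, 0 to 2 members and medians of -0.026 to 0.22 in METTL3 versus chow. In HFD+STZ versus chow 215 genes stood without HFD+STZ replicate 1, 78 without chow replicate 3 and 1 to 13 without any other single library; in METTL3 versus chow 750 stood without chow replicate 3, 691 without chow replicate 1, 506 without HFD+STZ replicate 1 and 34 to 269 without any other. Signs reversed without both libraries and with limma voom for Prdx5 (0.46 and 0.33 in HFD+STZ, 0.25 and 0.021 in METTL3 versus chow), Prdx2 (0.34 and 0.23, 0.38 and 0.23) and Sod1 (0.73 and 0.57, 0.34 and 0.18). With 1 library left out they ran, in the same comparisons, from -0.97 to 0.41 and -1.13 to 0.25 for Prdx5, from -0.62 to 0.34 and -0.57 to 0.38 for Prdx2, and from -0.71 to 0.68 and -1.06 to 0.34 for Sod1. Nfe2l2, near 0 throughout, reversed in HFD+STZ versus chow with the covariate (0.18), in METTL3 versus HFD+STZ with offsets (-0.029), and in METTL3 versus chow with offsets (-0.065), DESeq2 (-0.0089), DESeq2 size factors (-0.0087), both libraries left out (-0.16), limma voom (-0.14), the mitochondrial genome left out (-0.0042), no filter (-0.011), only the groups compared (-0.014), the replicate block (-0.0014), the stricter filter (-0.0069) and upper-quartile scaling (-0.072); with 1 library left out it ran from -0.19 to 0.084, -0.045 to 0.14 and -0.16 to 0.11. The cause of these changes was not tested.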
